A study of Papilio xuthus with 10 samples.

Results

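The genes described here are those whose expression climbed at every step from the second (L2) to the fifth (L5) larval instar of the swallowtail butterfly Papilio xuthus. A gene was a member when its RPKM (reads per kilobase of gene model, scaled to library depth) was lowest in L2, higher in L3, higher again in L4 and highest in L5, when L5 held an RPKM of 10 or more, and when RPKM + 1 in L5 was at least 4 times that in L2 and under 3 times that in L4. The rule found 183 of 15123 genes (1.21%). The larval values of L2, L3, L4 and L5 chose these genes, so their rise is a description and carries no test, and what the rule did not use is their expression in the other 6 libraries.

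The study profiled development with 10 whole-body libraries, 1 for each of the egg, each of the larval instars L1 to L5, and pupa and adult of each sex. All were unmodified, untreated insects of 1 species, the larvae reared on a rutaceous plant, and age in days was not given. The egg, L1 and L2 libraries came from pooled individuals and each of the others from a single individual, and no sex was given for egg or larvae. With 1 library per stage no difference between stages has a replicate check, stage cannot be told apart from the individual, the pool or the library, and no p-value is given.

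A caterpillar grows through a series of instars separated by moults, which ecdysteroid pulses trigger and juvenile hormone keeps larval. The last instar is the main feeding and storage stage and ends in pupation, when most larval tissues are broken down and adult organs are built from imaginal cells. A whole-body library mixes gut, fat body, epidermis, silk glands, muscle, nervous tissue and gonads, so fewer cells of a type and less RNA per cell cannot be told apart. The table names genes only by identifier and none of its identifiers matched the 13139 RefSeq genes of the species, so gene functions, pathways, tissue markers and sequences were not analysed here, and at most 2 identifiers are given for each direction of a comparison.

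Whole read numbers could be solved from the RPKM values for all 15123 genes (100%), with library totals between 23378656 reads in L5 and 35161755 reads in the male pupa. The L2 to L5 libraries stood apart from the rest. Reads assigned to genes summed to between 124% and 154% of the library total in L2 to L5 and to between 76.5% and 98.6% in the other 6 libraries, so in L2 to L5 the total used for scaling was smaller than the number of reads counted to genes. The 10 most abundant genes held 51.3% of the summed RPKM in L2 and 7.93% in the female adult. The part of this difference in the rise of the members was not tested. After the libraries were brought to the same summed RPKM, the rule found 159 genes, of which 100 (54.6% of the 183 members and 62.9% of the 159) were shared, and after they were brought to the same upper quartile it found 231 genes, of which 164 (89.6% of the members and 71.0% of the 231) were shared.

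The median RPKM of the members was 3.59 in L2, 11.7 in L3, 18.1 in L4 and 27.0 in L5. Their L5 values ran from 10.1 to 62722. On the log2(RPKM + 1) scale, which understates differences at low values, L5 exceeded L2 by a median of 2.52, with quartiles of 2.22 and 2.98 and a largest value of 7.04. The median over the 4885 genes with an L5 RPKM of 10 or more was 0.58 and that over all 15123 genes was 0.10. The rising order alone was held by 992 genes (6.56%) and the opposite, falling order by 950 (6.28%).

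The median step was 1.37 from L2 to L3, 0.65 from L3 to L4 and 0.44 from L4 to L5, where the genes with an L5 RPKM of 10 or more had median steps of 0.50, -0.0055 and -0.0039. The step from L2 to L3 was the largest of the 3 in 124 members, that from L3 to L4 in 37 and that from L4 to L5 in 22. The rule caps the last step through its limit on L5 over L4, which removed genes from 209 to 183, and leaves the first step uncapped, so this order of the steps is partly fixed by the choice of the genes. RR46_08262 and RR46_09562 climbed most evenly. RR46_08262 held an RPKM of 1.70, 3.48, 6.55 and 11.5 in L2, L3, L4 and L5, and its 3 steps lay between 0.73 and 0.75. For each step, an exact (Clopper-Pearson) 95% interval was taken of the later library's share of the reads of both libraries. A step exceeded counting error when this interval lay above the share at equal RPKM. The steps did so in 171, 155 and 139 members in turn, and all 3 steps did so in 105 of 183. These intervals cover counting error only. The rule chose these steps as rising in the same libraries, which raises the counts in advance. No share for other genes is given, so nothing is read from them. The members rested on a median of 99 reads in L2, with 3 members under 3 reads, and on 29 to 1491839 reads in L5.

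**Figure D1:**
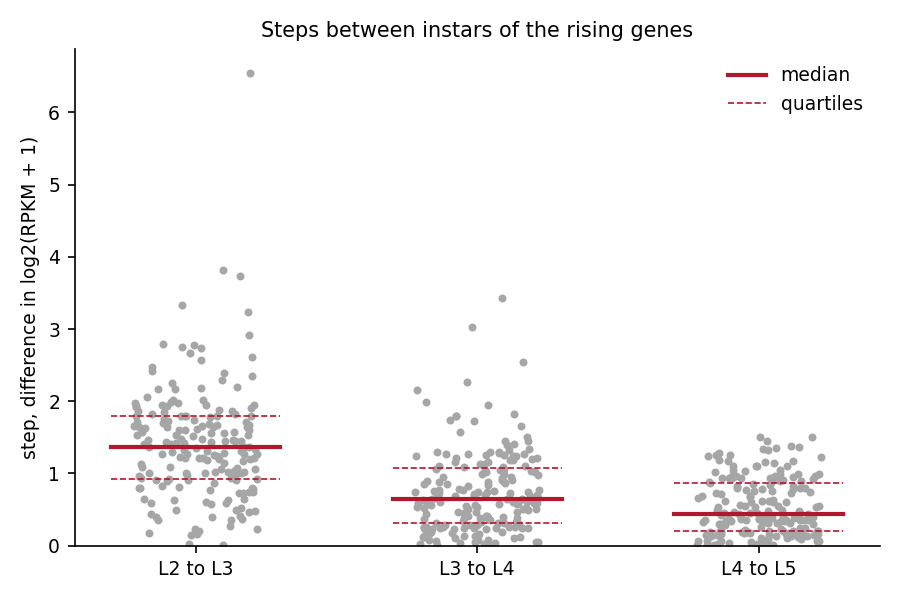
Each point is 1 of the 183 rising genes, and the y axis is the step between successive instars in log2(RPKM + 1), with solid lines for the medians and broken lines for the quartiles. The medians descend from 1.37 for L2 to L3 to 0.65 for L3 to L4 and 0.44 for L4 to L5, and 1 gene, RR46_11400, stands far above the rest in the first step with 6.55.

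The steepest member was RR46_11400, a gene model of 225 bp. Its RPKM was 7.67 in L2 (47 reads, 95% interval 5.64 to 10.2), 810 in L3, 1057 in L4 and 1140 in L5. Outside these instars it stood at 574 in the egg, 496 in L1, 809 and 1224 in the pupae and 5428 and 2130 in the adults (female first), so L2 was its single low library and the female adult its highest. RR46_07338, of 330 bp, came next, with an RPKM of 1.67 in L2, 25.9 in L3, 35.3 in L4 and 84.6 in L5. It held 32.8 in the egg and 29.2 in L1, 47.8 and 30.5 in the female and male pupa, and 32.3 and 654 in the female and male adult, so that the male adult stood far above all other libraries.

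The most abundant members were RR46_00557 and RR46_02559, which with another gene form a cluster of near-identical profiles in which all gene models measure 294 bp and reads agree within 2% in each library, so the reads of the copies cannot be assigned to 1 of them. RR46_00557 held an RPKM of 13983 in L2, 43820 in L3, 54597 in L4 and 62722 in L5. Its values were 7265 in the egg, 15494 in L1, 10613 (female) and 16514 (male) for the pupae and 2366 (female) and 2199 (male) for the adults. RR46_01759, also of 294 bp but outside the cluster, since its reads differed from those of the 3 by more than 2%, went from 9513 in L2 to 54541 in L5. These 4 genes held 2.11% of the summed RPKM of all genes in L2 and 12.4% in L5, while the remaining members together went from 0.187% in L2 to 1.71% in L5 with 1.22% and 1.31% for the adult female and male. If reads shared by the 3 copies were counted for each copy, the share of the 4 genes counts them repeatedly, which was not tested.

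The members just inside each limit of the rule differed little from the genes just outside it. The ratio of L5 to L2 (RPKM + 1) was 4.01 in RR46_10131 and 3.99 in RR46_09009, which was left out. The L5 RPKM was 10.1 in RR46_12802 and 9.87 in RR46_09563, which was left out. The ratio of L5 to L4 was 2.85 in RR46_14836 and 3.13 in RR46_12090, which was left out.

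Outside the chosen instars the rising genes were neither larva-specific nor silent as a set. Their median RPKM was 13.5 in the egg and 14.5 in L1, 14.1 and 11.9 in the female and male pupa, 9.37 and 20.8 in the female and male adult. An RPKM of 1 or more in all 6 of these libraries was reached by 153 members (83.6%), against a background of 62.0% over all genes and 87.8% over the genes with an L5 RPKM of 10 or more. L1 exceeded L2 in 151 members (82.5%; 69.2% of all genes), a contrast that shares L2 with the rule and from which nothing is read. L2 was the lowest of the 10 libraries in 106 members (57.9%, against 29.0% of the genes with an L5 RPKM of 10 or more) and L5 the highest in 89 (48.6%, against 12.2%), both of which the order set by the rule favours. The female adult was the lowest in 32 members (17.5%), near the 16.1% of those genes, and the highest in 11 (6.01%, against 16.6%). The male adult was the highest in 44 (24.0%, against 14.1%) and the lowest in 6 (3.28%, against 10.0%). The rule bars L2, L3 and L4 from being highest and L3, L4 and L5 from being lowest. This shifts the shares of all other libraries, so nothing is read from them. Egg and L1 ranked the members almost alike (Spearman's rho of 0.97 across 183 genes, which are not independent replicates), and the rank correlation was 0.94 between the pupae and 0.81 between the adults. Over the genes with an L5 RPKM of 10 or more these values were 0.96, 0.97 and 0.73.

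The members were grouped by the libraries in which RPKM + 1 reached 0.25 of the L5 value, a limit that can part genes of similar course. Because L5 belongs to the rule, the groups are a description. The egg or L1, a pupa and an adult all reached that level in 107 members (58.5%, against 78.4% of the other 4702 genes with an L5 RPKM of 10 or more). Their median RPKM was 2.91 in L2 and 21.8 in L5, and between 13.6 and 25.1 in each of the 6 libraries outside L2 to L5. No outside library reached it in 19 members (10.4%, against 3.25%), only pupae and adults in 17 (9.29%, against 1.72%), only the egg or L1 and the adults in 16 (8.74%, against 5.49%), only pupae in 8 (4.37%, against 1.30%), only adults in 7 (3.83%, against 0.829%), only the egg or L1 in 6 (3.28%, against 6.91%), and the egg or L1 and pupae in 3 (1.64%, against 2.08%). Of the 8 reached only by pupae, 3 are the near-identical copies described above, whose reads cannot be assigned to 1 of them. The number that no outside library reached depended on how L2 to L5 were scaled against the rest, at 31 after matching upper quartiles and 10 after matching sums.

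**Figure D2:**
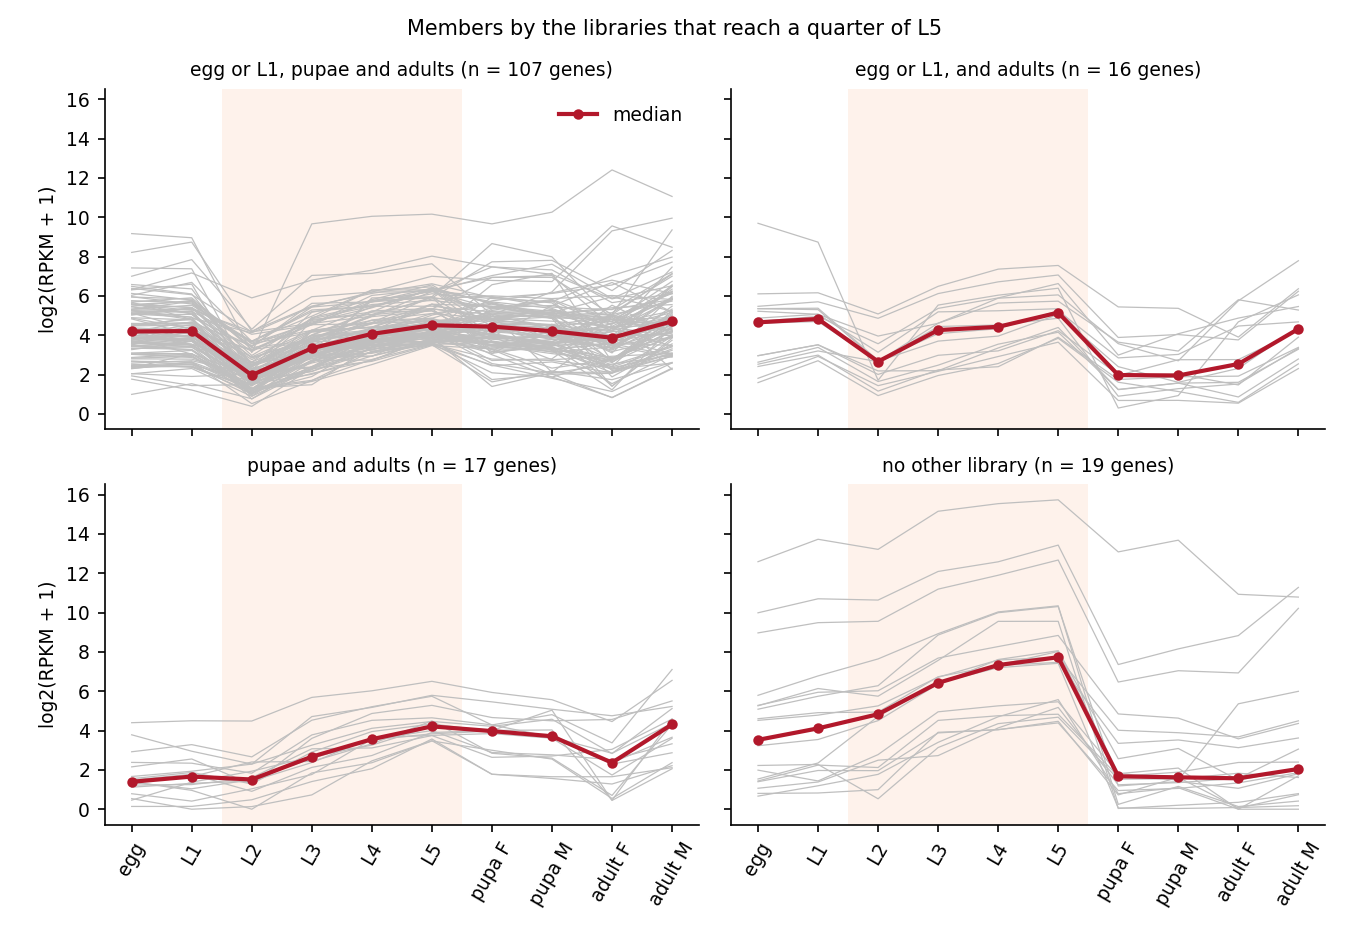
The y axis is log2(RPKM + 1) and the x axis the 10 libraries in developmental order. Grey lines are single genes, red lines the medians of 4 groups of rising genes, and the shaded libraries are the 4 that the rule used. The 107 genes reached again by egg or L1, pupae and adults have their lowest median in L2. The 19 reached by no other library drop from a median RPKM of 211 in L5 to 2.19 in the female pupa and 2.08 in the male pupa.

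The 19 members that no outside library reached had high medians in the late larva and low medians in the pupa. Their median RPKM was 27.5, 85.0, 160.1 and 211 in L2, L3, L4 and L5, against 10.5 in the egg, 16.3 in L1, 2.19 and 2.08 in the female and male pupa, and 1.97 and 3.13 in the female and male adult. RR46_05533, a long gene model of 5769 bp, held 1591 in L2, 4367 in L3, 6134 in L4 and 11061 in L5, the last resting on 1491839 reads. It stood at 163 and 284 in the female and male pupa, 454 and 2488 in the female and male adult, 1015 in the egg and 1665 in L1, so the male adult was the highest library after the larva. RR46_01759 is in this group while RR46_00557 and RR46_02559 fall among the 8 members reached only by pupae. L5 exceeded both pupae by 2 or more on the log2 scale in 48 members (26.2%; 6.36% of all genes and 16.8% of the genes with an L5 RPKM of 10 or more), a contrast that shares L5 with the rule.

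Several members were almost absent from the pupa and present again in the adult. RR46_08699, the most abundant of the 7 reached only by adults, held an RPKM of 15.0 in L2, 212 in L3, 282 in L4 and 283 in L5. It had 1.61 in the female pupa (23 reads, 95% interval 1.02 to 2.42) and 1.04 in the male pupa (16 reads, 0.594 to 1.69), then 90.5 and 97.3 in the female and male adult, with 13.8 in the egg and 21.3 in L1. RR46_10275 was at 826 in the egg and 425 in L1, at 2.27 in L2, and then at 45.3, 64.6 and 82.8 in L3, L4 and L5. Its pupal values were 0.228 in the female (20 reads) and 0.906 in the male (86 reads), and its adult values 24.6 in the female and 65.3 in the male, so that the egg was its highest library and the female pupa its lowest. RR46_10399 showed the opposite end of the life cycle, with 54.3 in the egg, 90.8 in L1, 32.9 in L2 and 169 in L5 but only 2.50 and 0.281 in the female and male pupa (33 and 4 reads) and 0.422 and 0.948 in the female and male adult (6 and 12 reads).

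**Figure D3:**
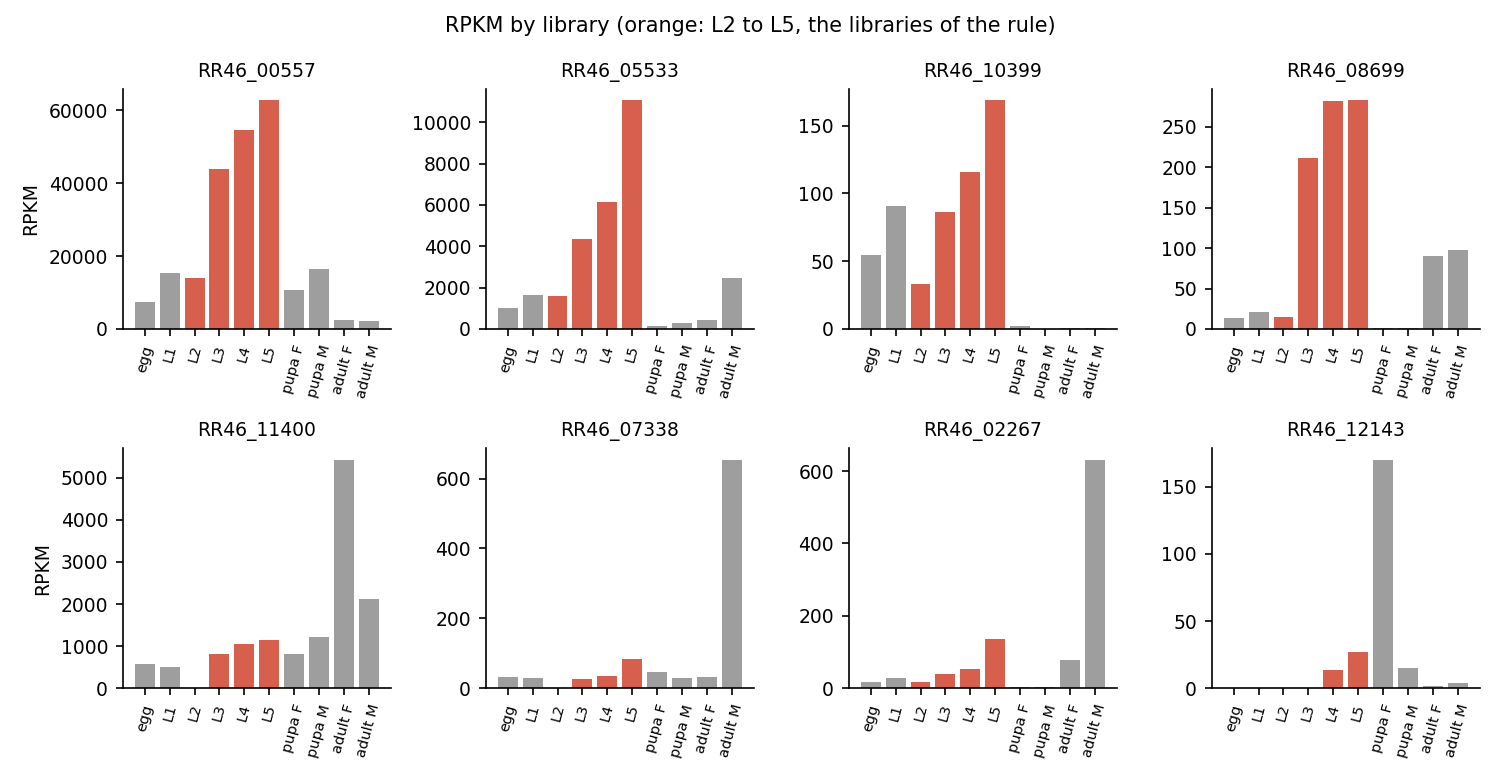
Bars give the RPKM of 8 rising genes in each of the 10 libraries on axes that start at 0, with L2 to L5 in orange and the other libraries in grey. RR46_00557 and RR46_05533 are highest in L5, RR46_10399 is close to 0 after the larva, RR46_08699 returns in both adults, RR46_11400 is highest in the female adult (5428), RR46_07338 and RR46_02267 in the male adult (654 and 631), and RR46_12143 in the female pupa (170).

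The female and male pupa hardly differed in these genes. The median difference, female minus male, was 0.072 on the log2(RPKM + 1) scale, with quartiles of -0.30 and 0.36, and 98 members were higher in the female pupa and 85 in the male. A difference of 2 or more was found in 2 members higher in the female pupa (0.456% of all genes, and 0.450% of the genes with an L5 RPKM of 10 or more) and in 0 higher in the male pupa (4.03% of all genes, and 0.491% of the genes with an L5 RPKM of 10 or more, so a count of 0 in 183 is near that background). The 2 were RR46_12143 and RR46_03381. RR46_12143 had no read in L1 or L2, where 3 reads would be an RPKM of 0.157 and 0.198 and the exact 95% upper limits are 0.193 and 0.244, and held 0.383 in L3 (6 reads), 13.8 in L4 and 27.1 in L5. It reached 170 in the female pupa (3076 reads, 95% interval 164 to 176) against 15.4 in the male pupa (301 reads, 13.7 to 17.3), and dropped to 1.39 and 3.98 in the female and male adult. RR46_03381 held 32.2 in the female pupa and 3.33 in the male pupa, with 39.3 in L5. The largest values the other way were -1.58 in RR46_06589 (14.1 and 44.2 in the female and male pupa) and -1.49 in RR46_11340 (7.40 and 22.7).

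The differences between the adults were wider, and mostly in 1 direction. The female adult lay below the male adult in 149 of 183 members and above it in 32, with a median difference of -0.97 and quartiles of -1.80 and -0.25. The median over all genes was -0.036 and that over the genes with an L5 RPKM of 10 or more was -0.083. The male adult was higher by 2 or more in 33 members (18.0%), against 10.3% of all genes and 9.60% of the genes with an L5 RPKM of 10 or more. The female adult was higher by 2 or more in 1 member, against 8.87% and 6.39% of the same sets. The member with the largest difference was RR46_07338, whose adult values of 32.3 (female) and 654 (male) are given above. RR46_12311 followed, at 0.375 in the female adult (6 reads, 95% interval 0.137 to 0.815) and 23.1 in the male (329 reads, 20.7 to 25.7), with 15.1 and 15.3 in the female and male pupa and 17.5 in L5. The 1 member higher in the female adult was RR46_13544, at 29.4 against 3.80 in the male. Each of the 33 had at least 175 reads in the male adult and L5 exceeded the male adult in 11 of them. The female and male adult are 1 individual each, so sex cannot be told apart from individual, and their median, taken relative to the median of all genes whose mean RPKM was at least 1, was -0.98 on the deposited values, -1.05 after matching upper quartiles and -1.01 after matching sums.

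**Figure D4:**
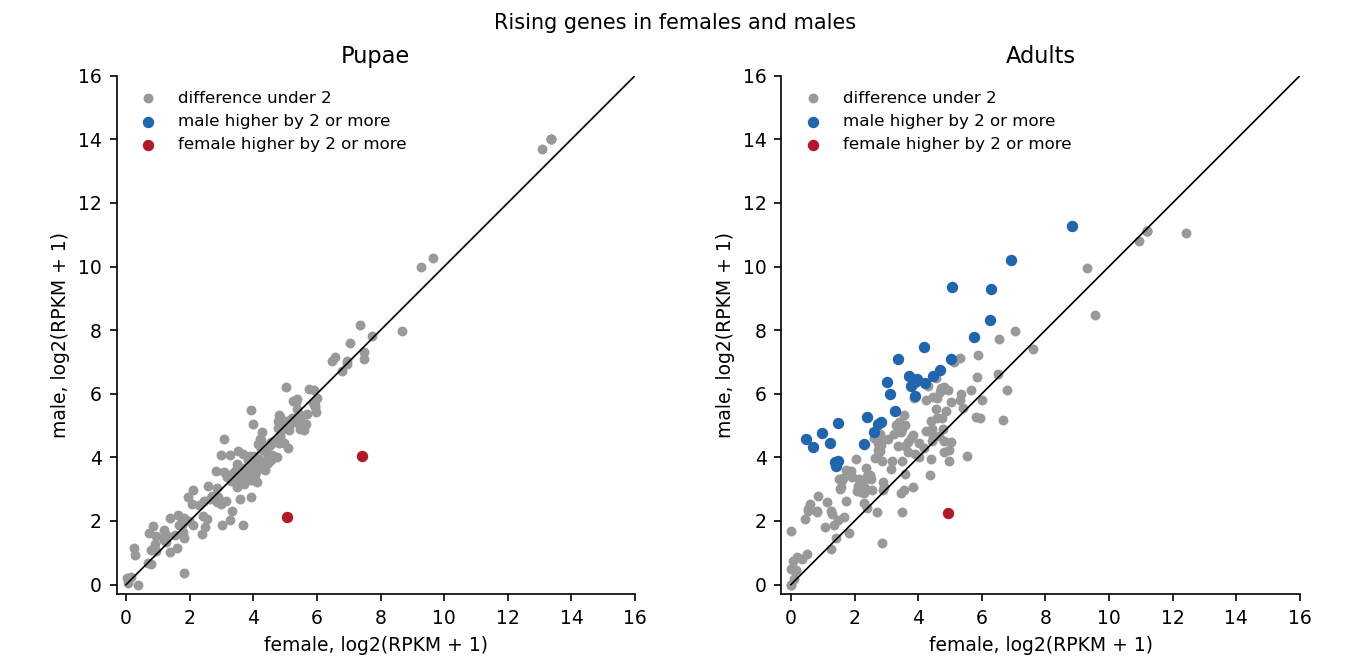
Each point is 1 of the 183 rising genes, with log2(RPKM + 1) in the female on the x axis and in the male on the y axis, for pupae on the left and adults on the right, and the line marks equal values. In pupae 2 points lie 2 or more toward the female, and in adults 33 points lie 2 or more toward the male and 1 toward the female.

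The same contrast was read in related sets for comparison. The 544 other genes at least 4-fold higher in L5 than in L2 with an L5 RPKM of 10 or more had a median adult difference of -0.42. Of these, 77 (14.2%) were higher by 2 or more in the male adult and 18 (3.31%) in the female, so the male excess was not particular to the members. The 146 genes chosen by the mirror of the rule, falling from L2 to L5, had a median of 1.75, with 60 higher by 2 or more in the female adult against 3 lower. Across the 4885 genes with an L5 RPKM of 10 or more, the rise from L2 to L5 and the female minus male difference of the adults had a Spearman's rho of -0.33, and the same rise and the pupal difference a rho of 0.015. Within the 183 members the first rho was 0.11. These are descriptions across genes of the same few libraries.

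From pupa to adult the medians of the sexes had opposite signs. In females the adult was lower than the pupa in 127 members and higher in 56, with a median of -0.50, and it was lower by 2 or more in 23 (12.6%; 5.31% of all genes) and higher by 2 or more in 12 (6.56%; 6.17% of all genes). At the same sum these counts were 16 and 14, and at the same upper quartile 26 and 8. In males the adult was higher than the pupa in 124 members and lower in 59, with a median of 0.54, and it was higher by 2 or more in 24 (13.1%; 8.91% of all genes) and lower by 2 or more in 11 (6.01%; 4.87% of all genes). The medians over all genes were 0.016 in females and -0.14 in males. In the 544 other genes at least 4-fold higher in L5 than in L2 they were -0.21 and 0.14, also of opposite signs. There the female adult was lower by 2 or more in 15.99% and the male adult higher by 2 or more in 14.34%. In the genes with an L5 RPKM of 10 or more these shares were 8.58% and 9.74%. The members had medians larger in size than the 544 but smaller shares, so nothing particular to the members is read from the shares. The difference between the sexes was not tested, and the pupa and adult of each sex are also the libraries of the contrasts between sexes.

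**Figure D5:**
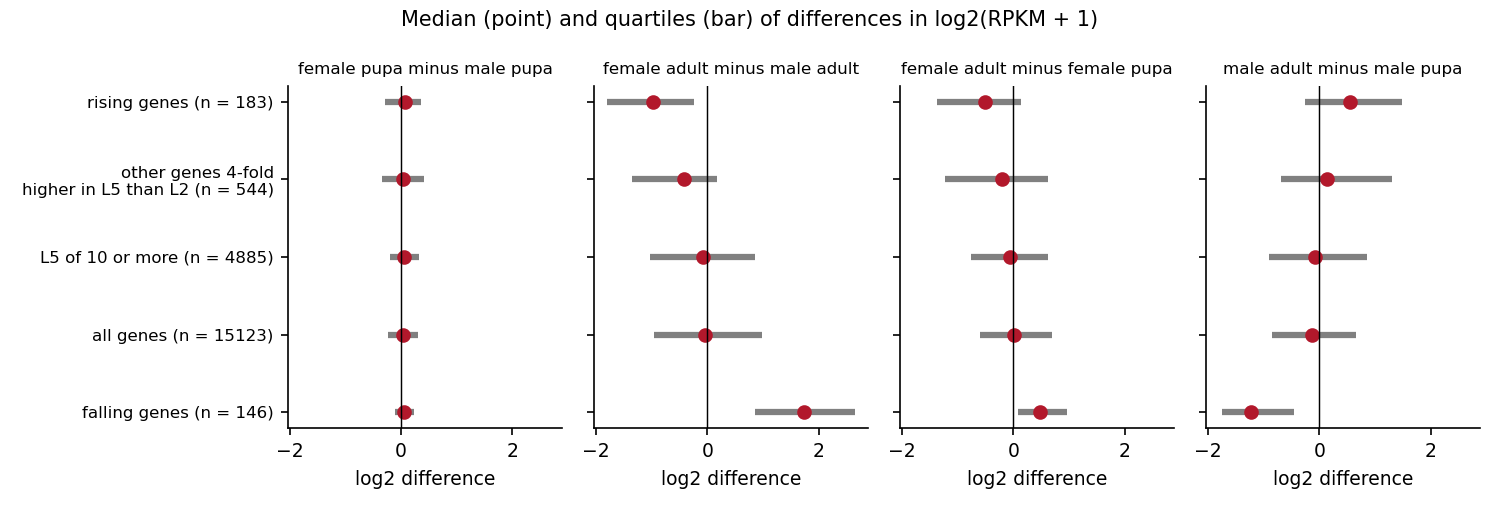
Points are medians and bars the quartiles of differences in log2(RPKM + 1) between libraries that the rule did not use, for the 183 rising genes, 544 other genes 4-fold higher in L5 than in L2, 4885 genes with an L5 RPKM of 10 or more, all 15123 genes and 146 falling genes. For the rising genes the medians are 0.072 between pupae, -0.97 between adults, -0.50 from female pupa to adult and 0.54 from male pupa to adult, and for the falling genes the last is -1.22.

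Of the 33 members higher in the male adult than in the female adult, 14 stood 2 or more above the male pupa, 6 had a female adult 2 or more below the female pupa, none had both and 13 had neither. Their largest difference between the pupae, in either direction, was 0.88. No such split is given here for other genes higher in the male adult, so nothing particular to the members is read from it. RR46_02267 was among the members with the largest male pupa to adult difference, at 3.49 and 631 in the male pupa and adult, against 4.33 and 77.2 in the female pupa and adult, with 16.5 in L2 and 136 in L5. The largest differences the other way were in RR46_12377, at 141 in the male pupa and 14.9 in the male adult, and in RR46_13575, at 252 and 28.9. In both of these the female showed the same course, from 93.9 to 5.28 and from 403 to 26.3, and the pupae exceeded L5, which held 16.3 and 61.0. In females, RR46_12143 (170 to 1.39) and RR46_08787 (46.9 to 1.67) fell furthest below the pupa, and RR46_10275 and RR46_08699 stood furthest above it.

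Egg and L1 were close. No member (0 of 183) differed by 2 or more, as against 1 gene of 15123 (0.00661%), and the median of L1 minus egg was 0.085, which turned to -0.20 when the libraries were brought to the same sum. Relative to genes whose mean RPKM was at least 1, the members stood 0.25 higher in L1. The mirror set had a median of -0.64. The largest difference toward the egg was in RR46_10275, at 826 in the egg and 425 in L1, and the largest toward L1 in RR46_01759, at 6159 and 13579.

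Gene length and identifier position were not used by the rule. The members' gene models, whose lengths were solved from the RPKM values and are multiples of 3 in 99.9% of genes, so coding lengths, had a median of 978 bp, close to the 1002 bp of all genes, but a wide spread. Models under 500 bp made up 34.4% of members. They made up 22.8% of all genes and 19.4% of the genes with an L5 RPKM of 10 or more. In the mirror set they made up 26.0%, and in the 544 other genes at least 4-fold higher in L5 than in L2 29.6%. Models of 2000 bp or more made up 21.9% of members. In the same sets, in the same order, they made up 18.8%, 19.6%, 7.53% and 11.4%. Another member held the next identifier number in 35 members (19.1%), in 16 pairs and 1 run of 3, and in 13 of these 17 runs all members fell in 1 of the groups above. The largest group holds 107 members (58.5%), so many members share a group without being neighbours, and nothing is read from the 13. RR46_05533 and RR46_05534 are such a pair, RR46_05534 going from 752 in L2 to 6532 in L5 and to 87.5 and 131 in the female and male pupa. In the mirror set 8 of 146 genes (5.48%) had such a neighbour, and in the 544 other genes 135 (24.8%), where the share also depends on the size of the set. Identifier order need not be genome order, and reads of overlapping or similar models cannot be told apart.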

How the data were processed

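Whole-body poly-A RNA of 10 stages was primed with random hexamers and read as pairs on an Illumina HiSeq 2000. The deposited values are RPKM per gene, made by the authors from reads aligned to their own assembly and gene set, 1 library per stage. The submitters' processing notes name TopHat 1.0.12 and 1.4.1. The treatment of strand and of reads with several hits is not given in the sources used here. Members and gene lists were chosen with earlier results of these data known.

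From the table, differences were taken in log2(RPKM + 1), called at 2 or more, and detection was set at an RPKM of 1. Read numbers, gene lengths and library totals were solved from the ratios of RPKM values between libraries, taking the smallest totals and lengths the ratios allow, so a true value may be a multiple of them. They served for depth, exact 95% intervals, the results on gene length and the search for near-identical copies, and no count model was fitted. The intervals cover counting error, and if paired ends were counted separately they understate it. The solving was tested on simulated data. Near-identical copies were gene models of equal length whose reads differed, library by library, by no more than 2% or 3 reads, at 100 reads or more somewhere.

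Members named are the 2 with the highest L5, the 2 with the largest and smallest rise, the 2 most even, those beside each limit of the rule, the 2 largest differences in each direction of each contrast and the 2 highest in each group. RR46_05534 was named after its values were seen, as the neighbour of RR46_05533. Alternatives were other scalings, pseudocounts and limits. Python 3.11.15, pandas 2.3.3, NumPy 2.4.6, SciPy 1.17.1 and Matplotlib 3.10.9 were used.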

Additional observations from a re-analysis of the deposited data

Results flagged for a closer look

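The rising genes showed a median female minus male difference of -0.97 on the log2(RPKM + 1) scale in adults and of 0.072 in pupae. They showed a median adult minus pupa difference of -0.50 in females and of 0.54 in males. RR46_12143 had a female minus male difference of 3.38 in pupae and of -1.06 in adults. The values of each pair have opposite signs, but the pupal median of 0.072 is close to 0, with quartiles of -0.30 and 0.36 and 98 members higher in the female against 85 in the male, so it gives no direction in pupae. With 1 library in each group the differences between the groups were not tested. No member differed by 2 or more in opposite directions in pupae and adults.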

How the results depend on the processing

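Of 42 alternative values for 11 results, 23 stayed within 1.5-fold of the value reported and 19 did not. The number of genes meeting the rule went from 183 to 113 with an L5 minimum of 20, to 44 with a fold of 8 over L2, to 289 with the order without L3 and to 609 with the order without L4 and no limit over L4. With a difference of 1 in place of 2, the members differing were 13 instead of 2 between pupae, 97 instead of 34 between adults, 82 instead of 35 between female pupa and adult, 88 instead of 35 between male pupa and adult and 6 instead of 0 between egg and L1. With a pseudocount of 0.1 they were 5 between pupae, 53 between adults and 1 between egg and L1. At the same sum the members differing between adults were 22. Members that no library outside L2 to L5 reached went from 19 to 39 with a reach raised to 0.5 of L5, to 7 with the reach lowered to an eighth part, to 31 at the same upper quartile and to 10 at the same sum. Members detected in all 6 outside libraries went from 153 to 98 at an RPKM of 5, and members with a neighbour went from 35 to 61 within 5 identifier numbers. Lower limits admit more genes by construction, and the causes of the shifts with scaling were not tested. The sex difference of the adults kept its direction under each scaling, at 1 higher and 33 lower in the female as deposited, 1 and 50 at the same upper quartile and 1 and 21 at the same sum. Depth limits the lowest members most, since 3 of 183 had under 3 reads in L2. No library could be left out, because each stage has 1 library, and no paired analysis was possible because no stage has replicate numbers.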
